A study of Rattus norvegicus with 6 samples.

Results

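The BCL2 family decides at the mitochondrial outer membrane whether a stressed cell enters apoptosis. Anti-apoptotic members (Bcl2, Bcl2l1 and Mcl1) hold back the effectors Bax and Bak1, which can open pores in this membrane, and the BH3-only proteins (Bbc3, Bid, Bad and Bcl2l11, which encodes BIM) either neutralise the anti-apoptotic members or engage the effectors directly. In sensory neurons this family is best known for deciding survival when trophic factors are withdrawn. Bnip3, a more distant relative, is best known as a hypoxia-induced receptor for mitophagy. These 10 genes were looked up by gene name in the table of raw counts of DRG neurons after perirenal adipose tissue ablation (PRATA). A row was found for 8 of the 10, among 25689 genes in all, and each of the 8 passed the filter on low counts. Mcl1 and Bbc3 matched no row and are not analysed here, so the anti-apoptotic side is represented by Bcl2 and Bcl2l1 and the pro-apoptotic side by Bax, Bak1, Bid, Bad, Bcl2l11 and Bnip3.

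The cells were sensory neurons taken from dorsal root ganglia (DRGs) at the levels L1-L2. The donors were SHRs (spontaneously hypertensive rats), a strain with inherited high blood pressure. The 3 PRATA samples were taken 4 weeks after both perirenal fat pads had been cut away, and the 3 sham samples came from SHRs after a sham operation. All rats are labelled wild type with an age of 6 to 8 weeks, an age that differs from the older one the study's methods give at purchase, and the labels do not give their sex. Neurons were enriched only by a difference from glia in how fast they attach to a dish during some hours of culture, so all values are of dissociated, briefly cultured cells. The shallowest library, sham replicate 2, held 5892967 counts and the deepest, sham replicate 1, held 15226952. Levels are given as CPM (counts-per-million units, scaled to library size by edgeR's TMM method), and differences as log2 fold changes, PRATA minus sham. The call was an adjusted p under 0.05 over all 14919 genes tested, which 0 genes (0%) reached in edgeR's quasi-likelihood test. At an unadjusted p under 0.05 the same test gave 1222 higher and 1512 lower genes, and DESeq2 gave 229 higher and 433 lower genes at an adjusted p under 0.05.

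Of the defining neuronal markers, Tubb3, the neuronal tubulin gene, was at 874 to 1847 CPM and Rbfox3, which encodes NeuN, at 55.7 to 104 CPM over the 6 samples. Markers of the other cells of a ganglion were present too. The 20 sensory neuron markers summed to 14845 to 22480 CPM in the PRATA group and 10343 to 16090 CPM in the sham group, and all 20 had a positive log2 fold change, with 5 at an unadjusted p under 0.05. The 6 satellite glia markers summed to 3052 to 5793 CPM and 4002 to 7963 CPM, and all 6 had a negative log2 fold change, with 0 at an unadjusted p under 0.05. Schwann cell markers summed to 1062 to 1949 CPM and 1161 to 1508 CPM, with 7 of 10 log2 fold changes above 0 and a median of 0.49. Within that list Ncmap (2.44) and Prx (1.39), genes of myelinating cells, had separate, higher groups. Sox10 (-1.63), a transcription factor gene of all peripheral glia, had a separate, lower group, and these 3 were picked after their values were seen. Ncmap had few counts, 13, 54 and 20 with PRATA and 7, 5 and 2 with sham surgery. It passed the filter on low counts through the PRATA group alone. Fibroblast markers summed to 323 to 1975 CPM and 906 to 1818 CPM, and macrophage markers to 20.7 to 64.2 CPM and 21.1 to 50.1 CPM. The defining T cell markers Cd3e and Cd3g were at or near 0, and red blood cell markers ranged from 4.91 to 560 CPM and from 2.27 to 148 CPM. The members are expressed in many of these cells, and in such bulk samples fewer cells of a type cannot be told apart from less RNA per cell. PRATA replicate 3 and sham replicate 1 stood apart from the other 4 samples in that the 7SL RNA gene Rn7sl1 took 5.40% and 5.63% of their reads, whereas in the other 4 samples a 5S rRNA gene led with 1.69% to 2.62%.

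Of the 8 members, 3 had an unadjusted p under 0.05 and all 3 (Bak1, Bax and Bcl2) were lower after PRATA, beside 10.1% of all genes tested at this threshold in this direction. On the higher side the count was 0 of 8, beside 8.19% of all genes. The groups did not overlap for 4 members. Bax and Bak1 were below the sham range in every PRATA sample, beside 11.2% of all genes, and Bid and Bad were above it, beside 11.6%. The median log2 fold change of the 8 members was 0.08 and that of all genes tested 0.02. Across the members the log2 fold change ran from -1.03 for Bak1 to 0.50 for Bad. The log2 fold changes of the pro-apoptotic genes did not share a sign. Both effectors, which form the pore, had lower levels. Bid and Bad, BH3-only genes that act upstream of it, had higher levels, with 95% intervals that included 0. Bcl2l11 (0.03) and Bnip3 (0.14) were near 0. None of the 8 reached the adjusted p, and the smallest, that of Bak1, was 0.168 (edgeR).

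**Figure D1:**
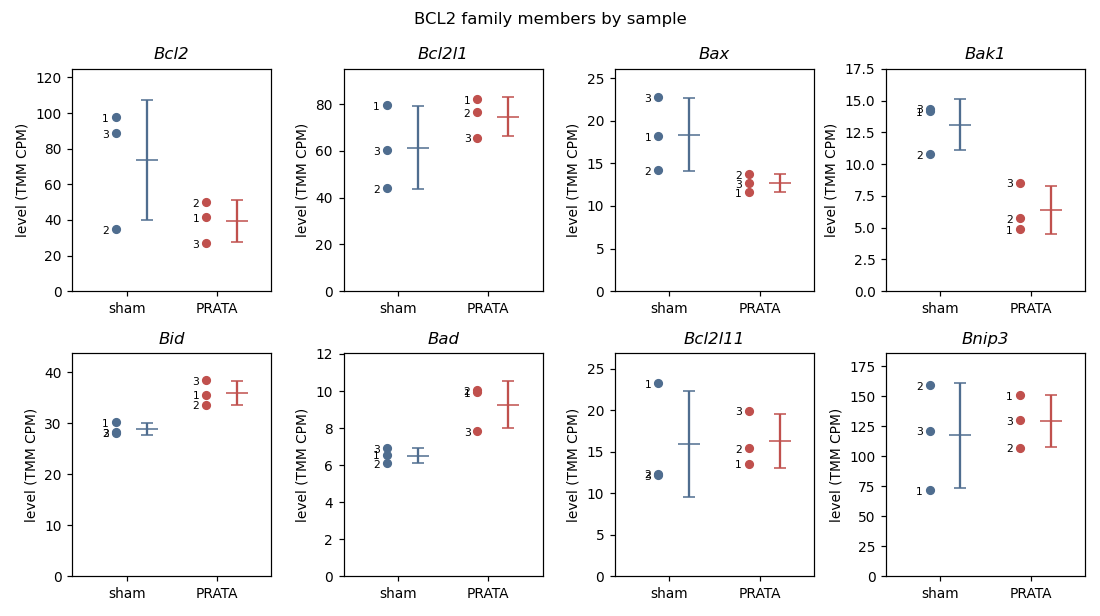
Level of each member (TMM CPM, vertical axis from 0) in the 3 sham and 3 PRATA samples; numbers are replicate numbers, and bars show the mean with its SD. Bax and Bak1 lie lower and Bid and Bad higher in every PRATA sample than in every sham sample, while the sham samples of Bcl2 spread from 35.0 to 97.6 CPM.

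The promoters of the members whose groups were apart are shown here, together with that of Bnip3, a gene known to be induced by hypoxia. Each run is the 250 bases before the start of transcription in RefSeq's annotation of the GRCr8 assembly, on the strand of the gene. The windows are those of Bak1 at chr20:5110975-5111224 (minus strand), Bid at chr4:155808320-155808569 (minus strand), Bad at chr1:213562864-213563113 (plus strand) and Bnip3 at chr1:203154963-203155212 (minus strand). Capitals mark matches, on either strand, to the GC box GGGCGG, the FOXO site TGTTTAC, the E-box CACGTG and the hypoxia response core ACGTG, which lies inside the E-box.
Bak1: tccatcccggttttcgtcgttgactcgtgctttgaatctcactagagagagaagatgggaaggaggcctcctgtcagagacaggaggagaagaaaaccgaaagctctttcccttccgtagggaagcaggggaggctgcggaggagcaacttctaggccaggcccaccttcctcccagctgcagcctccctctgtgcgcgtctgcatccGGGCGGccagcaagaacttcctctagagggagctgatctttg
Bid: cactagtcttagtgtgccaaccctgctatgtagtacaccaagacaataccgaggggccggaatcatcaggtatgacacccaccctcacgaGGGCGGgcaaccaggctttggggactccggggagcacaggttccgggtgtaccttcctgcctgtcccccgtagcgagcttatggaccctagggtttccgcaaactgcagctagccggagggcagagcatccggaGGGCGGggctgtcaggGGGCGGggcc
Bad: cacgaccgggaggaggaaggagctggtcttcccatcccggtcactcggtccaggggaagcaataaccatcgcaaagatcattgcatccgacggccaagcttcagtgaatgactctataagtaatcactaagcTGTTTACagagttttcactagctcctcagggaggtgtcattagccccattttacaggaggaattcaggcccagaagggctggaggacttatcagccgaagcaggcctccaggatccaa
Bnip3: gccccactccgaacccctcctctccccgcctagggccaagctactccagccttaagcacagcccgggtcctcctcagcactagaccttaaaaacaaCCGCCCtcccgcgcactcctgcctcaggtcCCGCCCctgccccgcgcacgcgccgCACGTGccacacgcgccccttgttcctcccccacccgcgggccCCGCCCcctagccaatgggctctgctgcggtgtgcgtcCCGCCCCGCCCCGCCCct
The table of promoters matched 8 of the 10 members by symbol, and Bax was not among them. The GC box was in the windows of Bak1, Bid and Bnip3 with 1, 3 and 6 copies and also in those of Bcl2l11 and Mcl1, beside 30.5% of 33469 windows of the same length. Bad held a FOXO site 118 to 112 bases before its start (3.21% of all windows), and Bcl2l11, a textbook FOXO target, held one 204 to 198 bases before its start. Bnip3 held the E-box 99 to 94 bases before its start (5.59%). The hypoxia core occurred in Bnip3, Bcl2 and Bcl2l1, beside 16.6% of all windows. Bcl2l1 had 4 windows, and the core lay in the first listed of them alone. None of the members' windows held the AP-1 site TGANTCA (6.34%) or the cAMP response element TGACGTCA (1.59%). GC content was 57.6% for Bak1, 62.8% for Bid, 52.4% for Bad and 72.4% for Bnip3, against a median of 51.2% over all windows. A match is a description of these letters and not a site of binding.

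Bak1 (ENSRNOG00000000485), which encodes the effector that sits in the mitochondrial membrane of living cells, had levels of 4.91, 5.74 and 8.54 CPM in the PRATA group, replicates 1 to 3 in order here and throughout, against 14.2, 10.8 and 14.4 CPM in the sham group. The groups were apart, the nearest values being those of PRATA replicate 3 and sham replicate 2. The PRATA mean was 6.39 ± 1.90 CPM (SD, n = 3) and the sham mean 13.1 ± 2.02 CPM (SD, n = 3). This was a log2 fold change of -1.03 (standard error 0.28, 95% interval -1.67 to -0.39, adjusted p = 0.168, edgeR), the sham level being 2.04-fold the PRATA level. Bak1 was the member with the largest difference, and also one of those with the fewest reads, with 38 to 205 counts per sample, so that counting error alone gave a coefficient of variation of 16.2% in the sample with the fewest. It was the one member with an unadjusted p under 0.05 in each of the 17 alternative fits, where its log2 fold change lay between -1.30 and -0.91 and its adjusted p between 0.0363 (limma voom with sample quality weights) and 0.550.

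Bax (ENSRNOG00000020876), the effector that shuttles from the cytosol to mitochondria, measured 11.6, 13.7 and 12.7 CPM with PRATA, against 18.2, 14.2 and 22.8 CPM with sham surgery. The groups came close, since PRATA replicate 2 and sham replicate 2 differed little. Mean levels were 12.7 ± 1.04 CPM (SD, n = 3) and 18.4 ± 4.28 CPM (SD, n = 3), a log2 fold change of -0.54 (standard error 0.22, 95% interval -1.06 to -0.02, adjusted p = 0.257, edgeR). When genes with low counts were kept, the scaling put sham replicate 2 at 13.07 CPM, below PRATA replicate 2 at 13.98 CPM, and the groups of Bax overlapped. Bax lost its unadjusted p under 0.05 in 10 of the 17 alternative fits, without PRATA replicate 1, 2 or 3 or sham replicate 1 or 3 among them, while its log2 fold change lay between -0.70 and -0.35, the smallest without sham replicate 3. Its adjusted p lay between 0.0617 and 0.645 over the 17 fits.

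Bcl2 (ENSRNOG00000002791), the founding anti-apoptotic member, measured 41.6, 49.96 and 27.0 CPM with PRATA, against 97.6, 35.0 and 88.6 CPM with sham surgery. Sham replicates 1 and 3 lay well above every PRATA sample, whereas sham replicate 2 lay inside the PRATA range. The PRATA mean was 39.5 ± 11.6 CPM (SD, n = 3), the sham mean 73.7 ± 33.9 CPM (SD, n = 3) and the log2 fold change -0.90 (standard error 0.39, 95% interval -1.80 to -0.01, adjusted p = 0.268, edgeR). The value rested on which sham samples entered: without sham replicate 2 the log2 fold change was -1.23 with an adjusted p of 0.0483 (edgeR), and without sham replicate 1 it was -0.67. Within the 4 samples other than PRATA replicate 3 and sham replicate 1 it was -0.45. Bcl2 had the largest coefficient of variation among the sham samples of any member, 45.9%.

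Bcl2l1 (ENSRNOG00000007946), which encodes BCL-XL, the anti-apoptotic member on which many mature neurons depend, measured 82.0, 76.4 and 65.6 CPM with PRATA, against 79.5, 44.0 and 60.4 CPM with sham surgery. The groups overlapped through sham replicate 1. The log2 fold change was 0.28 (standard error 0.23, 95% interval -0.25 to 0.81, adjusted p = 0.541, edgeR). It was 0.10 without sham replicate 2, 0.19 without PRATA replicate 1, 0.49 without sham replicate 1 and 0.59 in the 4 samples other than PRATA replicate 3 and sham replicate 1. In those 4 samples the groups did not overlap and its unadjusted p was under 0.05, which it was in no other fit. Both splice products of Bcl2l1, the long anti-apoptotic and the short pro-apoptotic one, enter the same count of reads per gene. The 2 anti-apoptotic members had values on opposite sides of 0, and a test of the difference between them was not made.

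Because library size cancels in a ratio of 2 genes of the same sample, the balance of Bax to Bcl2, a familiar index of apoptotic readiness, was also read within samples. Bax counts divided by Bcl2 counts gave 0.281, 0.275 and 0.470 in the PRATA group, against 0.187, 0.408 and 0.257 in the sham group. The groups overlapped, and PRATA replicate 3 and sham replicate 2 had the highest ratio of their groups. The mean log2 ratio was -1.60 ± 0.44 (SD, n = 3) with PRATA and -1.89 ± 0.57 (SD, n = 3) with sham surgery, a difference of 0.30 that was smaller than either SD. This difference was 0.031 without sham replicate 1, 0.044 without PRATA replicate 3 and 0.60 without sham replicate 2. Its direction changed to -0.22 within the 4 samples other than PRATA replicate 3 and sham replicate 1.

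Bid (ENSRNOG00000012439), the BH3-only protein that caspase-8 cleaves to link death receptors to mitochondria, measured 35.6, 33.7 and 38.5 CPM with PRATA, against 30.2, 28.3 and 28.1 CPM with sham surgery. The lowest PRATA value exceeded the highest sham value. Means were 35.9 ± 2.42 CPM (SD, n = 3) and 28.9 ± 1.15 CPM (SD, n = 3), a log2 fold change of 0.32 (standard error 0.16, 95% interval -0.04 to 0.67, adjusted p = 0.316, edgeR). It was the steadiest member, with coefficients of variation of 6.73% in the PRATA and 3.99% in the sham group, and its highest sample was 1.37-fold its lowest.

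Bad (ENSRNOG00000021147), the BH3-only protein that growth factor signalling holds inactive by phosphorylation, measured 9.94, 10.04 and 7.83 CPM with PRATA, against 6.56, 6.09 and 6.90 CPM with sham surgery. All 3 PRATA samples lay above the sham samples, PRATA replicate 3 being the nearest to them. The difference on the log2 scale was 0.50 (standard error 0.23, 95% interval -0.02 to 1.03, adjusted p = 0.289, edgeR), on 39 to 126 counts per sample. Without PRATA replicate 3 it was 0.61, with an unadjusted p under 0.05.

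Bcl2l11 (ENSRNOG00000016551), whose product BIM is induced in sensory neurons deprived of nerve growth factor, measured 13.6, 15.5 and 19.9 CPM with PRATA, against 23.3, 12.3 and 12.2 CPM with sham surgery. The highest sample of each group was the one with many 7SL reads, PRATA replicate 3 and sham replicate 1. The log2 fold change was 0.03 (standard error 0.30, 95% interval -0.67 to 0.72, adjusted p = 0.970, edgeR), an interval that still allowed a difference of over 1.5-fold either way. Its value lay between -0.14 and 0.39 over the alternative fits, and without sham replicate 1 each PRATA sample lay above both remaining sham samples.

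Bnip3 (ENSRNOG00000017243) measured 151, 107 and 130 CPM with PRATA, against 71.8, 159 and 121 CPM with sham surgery. Sham replicates 1 and 2 were the lowest and the highest of all samples, and the PRATA samples lay between them. The log2 fold change was 0.14 (standard error 0.29, 95% interval -0.52 to 0.81, adjusted p = 0.831, edgeR), and without sham replicate 1 it was -0.14. With 1020 to 1646 counts per sample, counting error was small for this gene, at most 3.13%, beside a coefficient of variation of 37.3% among the sham samples.

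**Figure D2:**
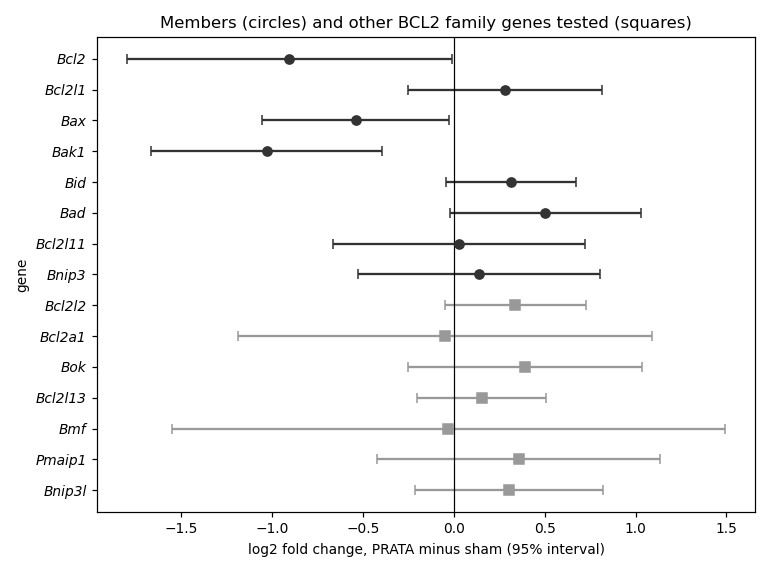
Log2 fold change, PRATA minus sham, with its 95% interval from edgeR's quasi-likelihood fit, for the 8 members and for the 7 other BCL2 family genes tested; the vertical line marks 0. The intervals of Bcl2, Bax and Bak1 end below 0, and all other intervals include 0.

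The remaining genes of the BCL2 family gave no unadjusted p under 0.05. Of 13 listed, 12 had a row and 7 passed the filter on low counts, with a median log2 fold change of 0.30, 5 values above 0 and 2 below. Bcl2l2, which encodes the anti-apoptotic BCL-w, measured 117, 93.1 and 120 CPM with PRATA, against 79.3, 93.3 and 88.1 CPM with sham surgery. This gave 0.34 on the log2 scale (standard error 0.17, adjusted p = 0.324, edgeR), and PRATA replicate 2 lay just inside the sham range. Log2 fold changes were 0.39 for Bok, an effector-like member, 0.36 for Pmaip1, which encodes the BH3-only protein NOXA, 0.30 for Bnip3l, the mitophagy receptor most like Bnip3, and 0.15 for Bcl2l13, and the groups of each overlapped. Thus, of the family genes tested, groups were separate for Bak1 and Bax, which were lower, and for Bid and Bad, which were higher. Among all genes tested, 11.2% were separate and lower and 11.6% separate and higher. The groups of Bax overlapped when genes with low counts were kept.

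The pathway around the family was read from lists of genes, with the same fit. Downstream, log2 fold changes of the 21 caspase and apoptosome genes tested were above 0 for 10 and below 0 for 11, and their median was -0.08. At an unadjusted p under 0.05, 0 were higher and 1 was lower, beside 8.19% and 10.1% of all genes. Log2 fold changes were 0.37 for Dffa, which encodes the inhibitor of the apoptotic nuclease, and 0.33 for Diablo, which encodes the IAP antagonist SMAC. The groups of both overlapped, and neither had an unadjusted p under 0.05.

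Upstream of the BH3-only genes, 4 of 26 transcription factors, kinases and partner proteins were higher and 0 lower at an unadjusted p under 0.05, beside 8.19% and 10.1% of all genes, with a median of 0.18. The higher count was 1 without PRATA replicate 1 or sham replicate 3, 2 without PRATA replicate 3, 2 with library size alone or the replicate block and 7 with voom quality weights, and without sham replicate 2 there were 2 lower genes. Atf3, a transcription factor induced by nerve injury and stress, was at 278, 327 and 108 CPM with PRATA, against 125, 82.7 and 56.5 CPM with sham surgery, a log2 fold change of 1.43 (adjusted p = 0.182, edgeR). Jun, which acts with JNK signalling on Bcl2l11 in deprived neurons, was at 749, 950 and 428 CPM with PRATA, against 520, 309 and 315 CPM with sham surgery, a log2 fold change of 0.89 (adjusted p = 0.233, edgeR). For both genes PRATA replicate 3 lay inside the sham range. Mapk10, which encodes the neuronal JNK3, had a log2 fold change of 0.54 with overlapping groups. Of these genes, Atf3 had an adjusted p under 0.05 in DESeq2 (0.0180) and in limma voom with sample quality weights (0.0477). Over the whole list, groups did not overlap for 4 higher genes and 1 lower gene, beside 11.6% and 11.2% of all genes. Atf3, Jun and Mapk10 were not among them.

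Bnip3 was set beside lists of hypoxia-responsive and mitophagy genes. Of 23 hypoxia-responsive genes tested, 1 was higher and 3 lower at an unadjusted p under 0.05, with a median of -0.18, beside 8.19% and 10.1% of all genes. The lower count was 0 with the replicate block, 1 without PRATA replicate 1 and 5 without sham replicate 2. Ldha, a glycolytic target of HIF, was at 467, 492 and 540 CPM with PRATA, against 942, 674 and 802 CPM with sham surgery, with separate groups (log2 fold change -0.69, adjusted p = 0.180, edgeR). Epas1, which encodes HIF-2 alpha and is rich in endothelium, had a log2 fold change of -0.92 with overlapping groups, and Ddit4, an inhibitor of mTOR signalling, one of 0.55 with separate groups. Of 19 mitophagy genes tested, 3 were higher and 0 lower at an unadjusted p under 0.05, beside 8.19% and 10.1% of all genes. Their median was 0.15. The groups did not overlap for 4 higher and 3 lower genes of this list, beside 11.6% and 11.2% of all genes. The higher count was 0 with the replicate block and without PRATA replicate 1 or sham replicate 1, 1 without PRATA replicate 3 or sham replicate 3, and 5 without sham replicate 2. The 3 genes with an unadjusted p under 0.05 were Fkbp8, a mitochondrial anchor that also binds BCL2 (log2 fold change 0.52, adjusted p = 0.196, edgeR), and the autophagosome genes Map1lc3b (0.50, adjusted p = 0.219, edgeR) and Map1lc3a (0.42, adjusted p = 0.267, edgeR), each with separate groups.

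**Figure D3:**
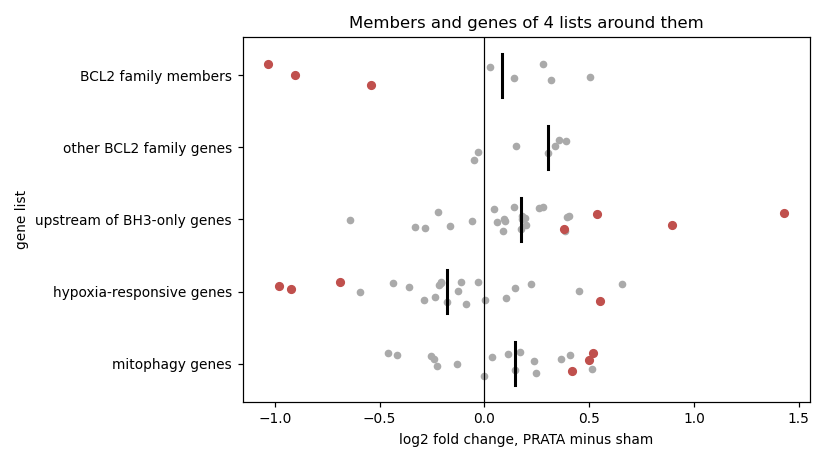
Log2 fold change, PRATA minus sham, of each gene tested in the member set and in 4 lists around it; red points have an unadjusted p under 0.05 in edgeR, grey points do not, black bars are list medians, and the vertical scatter within a row has no meaning. Medians lie between -0.18 and 0.30.

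Levels of some members were also set beside markers of other cells. The satellite glia markers summed to 3617, 5793 and 3052 CPM with PRATA, against 6948, 4002 and 7963 CPM with sham surgery. Sham replicates 1 and 3, the samples with the most Bcl2, Bax and Bak1, were also those with the most glial marker RNA. Sham replicate 2 was within the PRATA range for the glial markers and for Bcl2, but above it for Bax (14.2 CPM) and Bak1 (10.8 CPM). Within the PRATA group, replicate 2 had the most glial marker RNA and the most Bcl2 and Bax. Replicate 3 of that group had the least glial marker RNA and the most Bak1 (8.54 CPM). Relative to the mean log2 level of the 6 glial markers in the same sample, the groups differed by log2 values of -0.34 for Bcl2, -0.04 for Bax and -0.57 for Bak1, with overlapping groups for each. Bid and Bad were 0.78 and 0.96 higher on this scale, with overlapping groups. The glial mean was itself 0.47 lower after PRATA, with overlapping groups. This scale therefore raised every gene by about that amount, and the smaller differences of Bcl2, Bax and Bak1 on it are not particular to them.

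The sensory neuron markers moved the other way, their mean log2 level being 0.53 higher after PRATA, with overlapping groups. Relative to that mean, all 8 members were lower after PRATA, by log2 differences from -1.57 for Bak1 to -0.04 for Bad, and Bak1 was the one member whose groups did not overlap. For Bcl2 and Bax it was -1.34 and -1.04. Taking levels relative to a marker mean shifts every gene by about the same amount, so the turn of sign of Bid, Bad, Bcl2l1, Bcl2l11 and Bnip3 on this scale follows from the shift and is not particular to them. The part of glial and neuronal content in the members' differences was not tested.

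**Figure D4:**
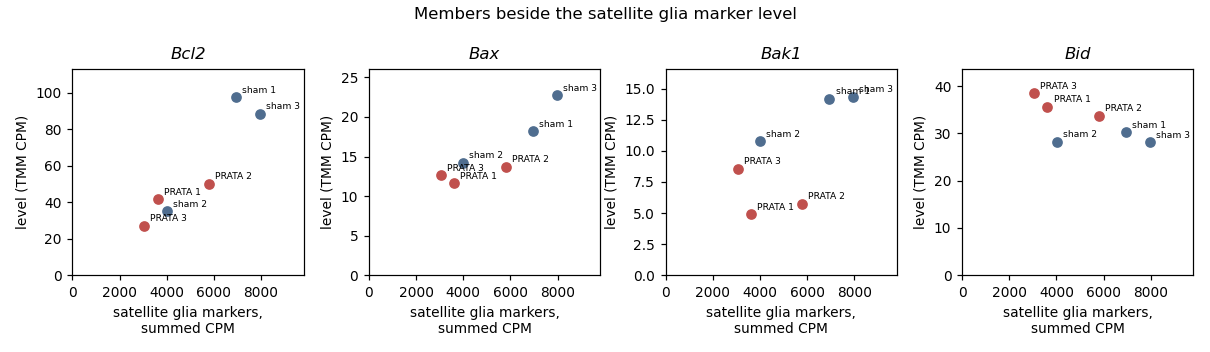
Level of Bcl2, Bax, Bak1 and Bid (TMM CPM, vertical axis) in each sample against the summed level of 6 satellite glia markers (CPM, horizontal axis), both from 0; red points are PRATA and blue points sham samples. For Bcl2, Bax and Bak1, sham replicates 1 and 3 are highest on both axes. For Bax and Bak1 every PRATA sample lies below every sham sample, and for Bid above.

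**Figure D5:**
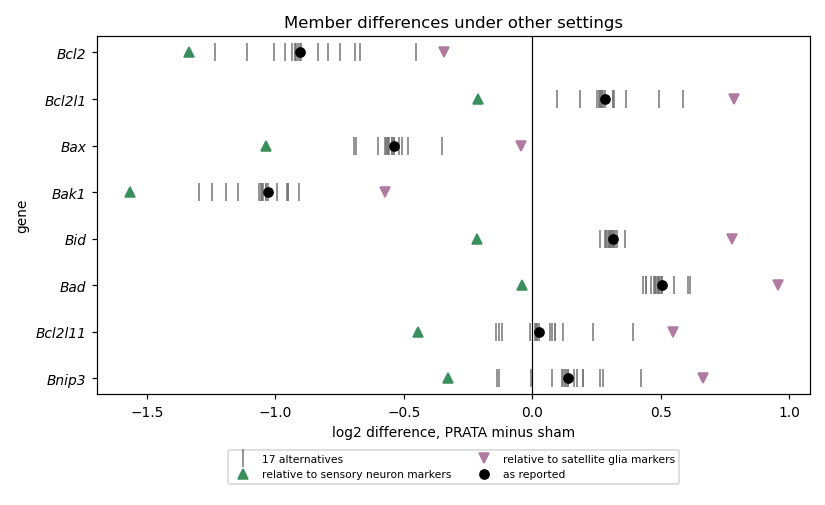
Log2 difference, PRATA minus sham, of each member as reported (black), under 17 alternative fits (grey ticks), and relative to the mean of sensory neuron markers (green) or of satellite glia markers (purple). Bcl2, Bax and Bak1 stay below 0 in every one of these, the neuron and glia markers shift all members down or up by a similar amount, and Bcl2l11 and Bnip3 cross 0 among the fits.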

How the data were processed

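The authors deposited one table of unnormalized read counts, by gene, in 3 PRATA and 3 sham samples. The submitters' processing notes name STAR 2.7.3a, RSEM and DESeq2, whereas the study's methods name HISAT2, StringTie and Cuffdiff. The tool behind the counts, its use of strand, its treatment of multi-mapping reads, the build and the annotation are not given in the sources used here, and gene lengths were not used, so levels were not compared between genes. The labels and design text name 3 rats per group and do not tie numbers across groups.

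The main test was that of edgeR 4.0.16 in R 4.3.3 (filterByExpr, minimum count 10 and minimum total 15; TMM; quasi-likelihood test, two-sided, Benjamini-Hochberg over 14919 genes), with limma 3.58.1 and DESeq2 1.42.0 as alternatives. Standard errors were taken as the log2 fold change over the square root of the F statistic. Ratios of 2 genes used raw counts plus 0.5. A floor of 3 counts was 0.197 to 0.509 CPM and covers counting error only. With 3 samples against 3 an exact permutation test cannot go below 0.10, so none was used. The main edgeR fit was tested on simulated counts, with the outcome not reported here. Sequences were read from RefSeq tables (GRCr8), and plots were made in matplotlib 3.10.9 (Python 3.11.15).

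The members and lists were chosen with earlier results of these data known. Genes named are the members, up to 5 of the other BCL2 family genes and up to 3 of each further pathway list with the smallest p, and 2 markers of a cell type. Some list genes that this rule names are not reported here. Alternatives were other scalings, filters and tests, the replicate number as a block, each sample left out, 4 samples without PRATA replicate 3 and sham replicate 1, protein-coding genes alone, and levels relative to neuron markers. Levels relative to satellite glia markers were added after seeing the data.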

Additional observations from a re-analysis of the deposited data

How the results depend on the processing

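Of the 8 members, 0 had an adjusted p under 0.05 in edgeR, 1 did with limma voom and sample quality weights (Bak1), and between 0 and 1 did when a sample was left out (Bcl2, without sham replicate 2). Lower members at an unadjusted p under 0.05 numbered 3, but 1 with limma-trend, with the replicate block and in the 4 samples other than PRATA replicate 3 and sham replicate 1 (Bak1 in each), and between 1 and 3 with a sample left out. Higher members numbered 0, but 1 in those 4 samples (Bcl2l1) and between 0 and 1 with a sample left out (Bad, without PRATA replicate 3). Members above the sham range in every PRATA sample numbered 2, but 4 in those 4 samples and between 2 and 4 with a sample left out, the 4 being found without sham replicate 1. Members below it numbered 2, but 1 when low counts were kept and 3 without sham replicate 2. In those 4 samples the log2 ratio of Bax to Bcl2 differed by -0.22 and Bnip3 by -0.13. With a sample left out, the log2 fold change ran from -0.14 to 0.39 for Bcl2l11 and from -0.14 to 0.42 for Bnip3, and among protein-coding genes alone that of Bcl2l11 was -0.0070. Relative to sensory neuron markers it was -0.21 for Bcl2l1, -0.21 for Bid, -0.039 for Bad, -0.44 for Bcl2l11 and -0.33 for Bnip3. These last signs follow from a shift common to all genes, and the other causes were not tested. Keeping low counts moved the median of all genes to -0.17, against 0.02 with the filter.

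The labels' replicate numbers did not pair the samples: deviations of same-numbered samples correlated with r of -0.36, -0.05 and -0.35 across genes, and 0 of 6 samples correlated best with their own number. With this block the value of Bak1 was -1.05 (edgeR, adjusted p = 0.461). The ratios planned with Mcl1 and Bbc3 were not run, since these genes matched no row. Depth limits Bak1 and Bad most.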
